A study of Homo sapiens with 24 samples.

Results

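Expression of the core autophagy genes, which are the genes for starting autophagy, for attaching its ubiquitin-like proteins to membrane and for selecting cargo, was compared between control and Ocoxin-treated cells in 4 human cancer cell lines. The 36 members were given by symbol and each matched a single Ensembl identifier among the 58051 genes of both count tables. The list sets no threshold on a measured value. The lines were SW620, a colon adenocarcinoma line (COAD), BxPC-3, a pancreatic adenocarcinoma line (PAAD), LNCaP, an androgen-sensitive prostate cancer line (PRAD), and HCC-70, a triple-negative breast cancer line (TNBC). Each had 3 control libraries and 3 libraries of cells kept for 48 h with Ocoxin, a nutritional supplement that combines vitamins and minerals with amino acids and extracts of plants. The dilution was 1 in 700 in COAD and TNBC, 1 in 500 in PAAD and 1 in 50 in PRAD. Control libraries carry the same dilution in their labels, so the letters in the library titles decided the group. Ocoxin was given in medium with a low content of serum, after culture with more serum. The paper does not state the medium of the controls during the treatment. RNA was taken from the cells that stayed attached. Each cancer is represented by 1 cell line, so a value belongs to that line, and in bulk RNA fewer cells of a type and less RNA per cell cannot be told apart.

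Autophagy encloses parts of the cytoplasm in a double membrane, the autophagosome, and delivers them to the lysosome. The ULK kinase complex starts the process, a class III phosphatidylinositol 3-kinase complex marks the membrane with PI3P, and ATG9A, the ATG2 proteins and the WIPI proteins enlarge it. A conjugation machinery then attaches the ATG8 proteins, LC3 and the GABARAP family, to lipid, and receptors such as p62 bind both these proteins and ubiquitinated cargo. Several of these proteins are themselves degraded in the lysosome, so transcript levels do not measure the activity of the pathway.

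A library of COAD, PAAD or TNBC held between 25160757 and 39009959 counts and one of PRAD, which was counted in a separate run, between 9063968 and 9520969. Fragments mostly gave 2 counts in the former lines and 1 in PRAD, so levels in PRAD were not set against those of the other lines. In COAD the Ocoxin libraries had fewer counts (25160757 to 29670036) than the controls (31265452 to 34397801), and the part of this in the COAD values was not tested. Libraries numbered 3 differed most from libraries 1 and 2 of their group in 6 of the 8 groups. Markers of the labelled lines were present, such as VIL1 in COAD (469 to 527 CPM, counts relative to the TMM-scaled library size), KRT7 in PAAD (969 to 1100 CPM), KLK3 in PRAD (377 to 410 CPM) and KRT5 in TNBC (1410 to 1670 CPM). KRT5 was higher in PAAD (2430 to 3310 CPM), and KRT7 was also present in TNBC (557 to 695 CPM). These 2 markers therefore do not identify PAAD and TNBC. CDX1 and KRT20 did not pass the filter on low counts in COAD, and ERBB2 was at 241 to 286 CPM in TNBC. Of the markers of other cell types, PTPRC, DCN and COL1A2 did not pass it in any line, and CD3E passed in PAAD alone (1.66 to 2.88 CPM). COL1A1 passed in all lines, with 6.18 to 9.88 CPM in COAD, 14.1 to 18.4 in PAAD, 46.5 to 65.4 in PRAD and 12.5 to 16.7 in TNBC, and PECAM1 in COAD (2.17 to 3.77 CPM), PAAD (3.68 to 5.73) and TNBC (0.155 to 0.364). Their part in the results was not tested.

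All 36 members passed the filter on low counts in all 4 lines. A member is called altered where edgeR's quasi-likelihood test gave a Benjamini-Hochberg adjusted p under 0.05 over all genes tested, with no minimum fold change. By this rule 14 members were altered in at least 1 line, 12 of them in a single line and 2, SQSTM1 and ATG2A, in 2 lines. The other 22 were altered in none. The changes were small: the 16 altered values lay between -0.25 and 0.43 on the log2 scale.

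In TNBC 7 members rose and 4 fell, which is 30.6% of them, against 21% of all genes tested there. This majority of rises turned over in other fits: with a trend of the counts with gene length and GC content removed 5 rose and 8 fell (21.9% of all genes were called), with the block and the trend removed 7 rose and 9 fell (32.8%), and with all 24 libraries in 1 fit 1 rose and 4 fell (11.1%). In COAD 3 rose and none fell (8.33%, against 2.55% of all genes). In PAAD 2 rose and none fell (5.56%, against 8.33%). With the trend removed 2 rose and 1 fell there, but the share of all genes in that fit is not given. In PRAD none was altered by edgeR's test, against 2.98% of all genes. DESeq2 also called 0 members in PRAD, and 9 of the 36 (25.0%) had an unadjusted edgeR p under 0.05, against 20.8% of all genes. By the adjusted p of these fits the members' share was above that of all genes in COAD and TNBC and below it in PAAD and PRAD, and the difference in shares was not tested. The members had a median log2 fold change of 0.02 in TNBC, where it was 0.0056 over all genes, and of 0.05 in PAAD (0.0027 over all genes). In COAD and PRAD the members' median was 0.04, against -0.0053 and 0.0088, and in PRAD it was -0.04 once the trend was removed. A positive log2 fold change in all 4 lines was found for 11 members, whether or not they were altered. The share of all genes is not given, so this count is not read as a common rise.

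With the replicate number as a block, 17 members were altered in TNBC (10 up, 7 down, 47.2%), against 33.9% of all genes. In PAAD the block gave 11 members (9 up, 2 down, 30.6%), against 23.1% of all genes, and in PRAD 3 members, all up (8.33%), against 8.5% of all genes. Without both libraries numbered 3 of a line, 16 members were altered in TNBC (25.6% of all genes were), 5 in PAAD (13.1% of all genes), 4 in COAD (6.36% of all genes) and 0 in PRAD (0.0809% of all genes), and these included the 11, 2 and 3 members altered with every library.

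**Figure D1:**
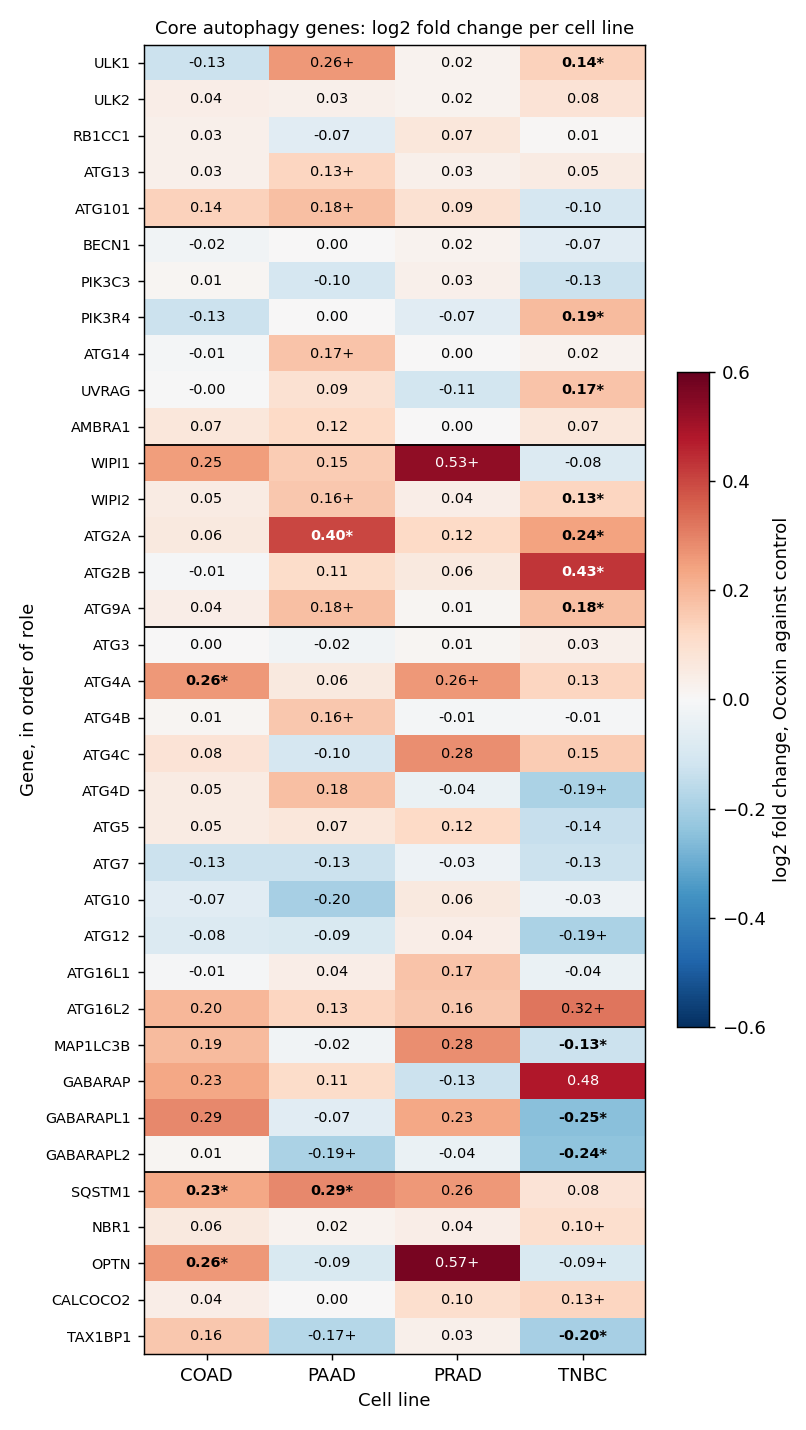
Log2 fold change of the 36 core autophagy genes between Ocoxin and control libraries (n = 3 each) in 4 cell lines, as color and printed number, with lines between roles. Bold values with a star had an edgeR adjusted p under 0.05, and a plus marks values called only with the replicate block (not shown for COAD); stars stand mainly in TNBC, positive from ULK1 to ATG9A and negative among the ATG8 family.

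In the ULK complex, the kinase ULK1 was the altered member of 5. In TNBC its level was 63.7, 62.8 and 62.3 CPM in control replicates 1 to 3 and 69.4, 70.5 and 68.9 CPM with Ocoxin. The groups did not overlap, and the rise was 0.14 on the log2 scale (SE 0.0433, edgeR adjusted p = 0.0321). It lost its call without any library but treated replicate 3, with adjusted p from 0.0678 to 0.117, in the fit of all 24 libraries (0.435) and without the filter on low counts (0.0569). In PAAD the log2 fold change of ULK1 was 0.26 (adjusted p = 0.0808, and 0.000592 with the block), and there the groups overlapped. ATG13 and ATG101, partners of the kinase, were altered in PAAD with the block alone (adjusted p = 0.0174 and 0.0487). ULK2 and RB1CC1, the scaffold FIP200, had log2 fold changes from -0.07 to 0.08 in the 4 lines and were altered in none.

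In the class III PI3-kinase complex and its regulators, 2 of 6 members rose, both in TNBC. PIK3R4, the regulatory subunit VPS15, was at 72.3, 63.7 and 65.8 CPM in TNBC controls and at 76.8, 77.4 and 76.2 CPM with Ocoxin. Control replicate 1 lay closest to the treated libraries, and the log2 fold change was 0.19 (SE 0.0519, adjusted p = 0.0203). UVRAG, a subunit of the complex that acts on endosomes, was at 31.2, 32.3 and 32.8 CPM in controls and 36.1, 36.8 and 35.3 CPM with Ocoxin. Its log2 fold change was 0.17 (SE 0.0533, adjusted p = 0.0408), and with DESeq2 the adjusted p was 0.0686. PIK3R4 lost its call without control replicate 2 or 3 or treated replicate 1 or 2 (adjusted p from 0.0616 to 0.0892), and UVRAG without any library but treated replicate 3 (0.059 to 0.143). With all 24 libraries in 1 fit neither was called (0.0522 and 0.0867), and UVRAG was not called with the trend removed (0.12, and 0.0688 with the block) or without the filter (0.0727). The catalytic subunit PIK3C3, the scaffold BECN1, ATG14, which directs the complex to autophagosomes, and AMBRA1, a regulator of BECN1, were altered in none of the lines, with log2 fold changes from -0.13 to 0.17. ATG14 was altered in PAAD with the block (adjusted p = 0.0144).

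Of the 5 genes for lipid transfer and PI3P binding, 4 rose in TNBC, 1 in PAAD and none in COAD or PRAD. ATG2B (ENSG00000066739, chr14:96279202-96363870, minus strand) encodes a protein that carries lipid to the growing membrane. Its level in TNBC was 30.6, 32 and 29.8 CPM in controls and 42.1, 43.2 and 39.2 CPM with Ocoxin. Every treated library lay above every control, and the rise of 0.43 on the log2 scale (SE 0.0579, adjusted p = 0.000312), or 1.35-fold, was the largest of the altered members. It was called in all 6 fits that left out a library. ATG2B was not altered in COAD (-0.0073), PAAD (0.11) or PRAD (0.06).

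ATG2A (ENSG00000110046, chr11:64894546-64917248, minus strand), the paralog of ATG2B, rose in both PAAD and TNBC. In PAAD it was at 55.6, 67.1 and 51 CPM in controls and at 81.8, 81.9 and 65.5 CPM with Ocoxin. In TNBC it was at 48.3, 47.3 and 40.9 CPM in controls and at 57.2, 55 and 49.1 CPM with Ocoxin. In PAAD treated replicate 3 lay below control replicate 2, while in TNBC the groups did not overlap, and in both lines replicate 3 was the lowest of its group. The log2 fold change was 0.40 in PAAD (SE 0.0984, adjusted p = 0.0196) and 0.24 in TNBC (SE 0.0731, adjusted p = 0.0362). The call in PAAD was lost without control replicate 1 or 3 or treated replicate 1 or 2 (adjusted p from 0.0614 to 0.105), and that in TNBC without control replicate 2 or 3 or treated replicate 1 or 2 (0.0722 to 0.146) or with all 24 libraries in 1 fit (0.168). In COAD the log2 fold change was 0.06 and in PRAD 0.12, neither altered.

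ATG9A, the transmembrane lipid scramblase, was at 117, 128 and 114 CPM in TNBC controls and at 140, 132 and 134 CPM with Ocoxin (log2 fold change 0.18, SE 0.0479, adjusted p = 0.0209). WIPI2, the PI3P binder that recruits the conjugation machinery, was at 129, 135 and 130 CPM in TNBC controls and at 152, 143 and 138 CPM with Ocoxin (0.13, SE 0.0444, adjusted p = 0.0484). For both genes the groups did not overlap. Both were also altered in PAAD with the block (log2 fold change 0.18, adjusted p = 0.00152, and 0.17, adjusted p = 0.00446). In TNBC the call of ATG9A was lost without control replicate 1 or 3 or treated replicate 1 (adjusted p from 0.0755 to 0.103), and that of WIPI2 without any library but treated replicate 3 (0.0667 to 0.232). With all 24 libraries in 1 fit the adjusted p was 0.0897 for ATG9A and 0.114 for WIPI2, and with the trend removed it was 0.159 for WIPI2. WIPI1, another PI3P binder, was at 29.3, 26.3 and 19.5 CPM in PRAD controls and at 41.7, 36.3 and 30.3 CPM with Ocoxin. The groups did not overlap, but replicates spread widely, and the log2 fold change of 0.53 (SE 0.167) had an adjusted p of 0.132, or 0.0104 with the block. Of the exonic bases, 34.9% in ATG9A overlap ABCB6 and 28.1% in WIPI1 overlap ARSG and another gene, and the counting did not use the strand.

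**Figure D2:**
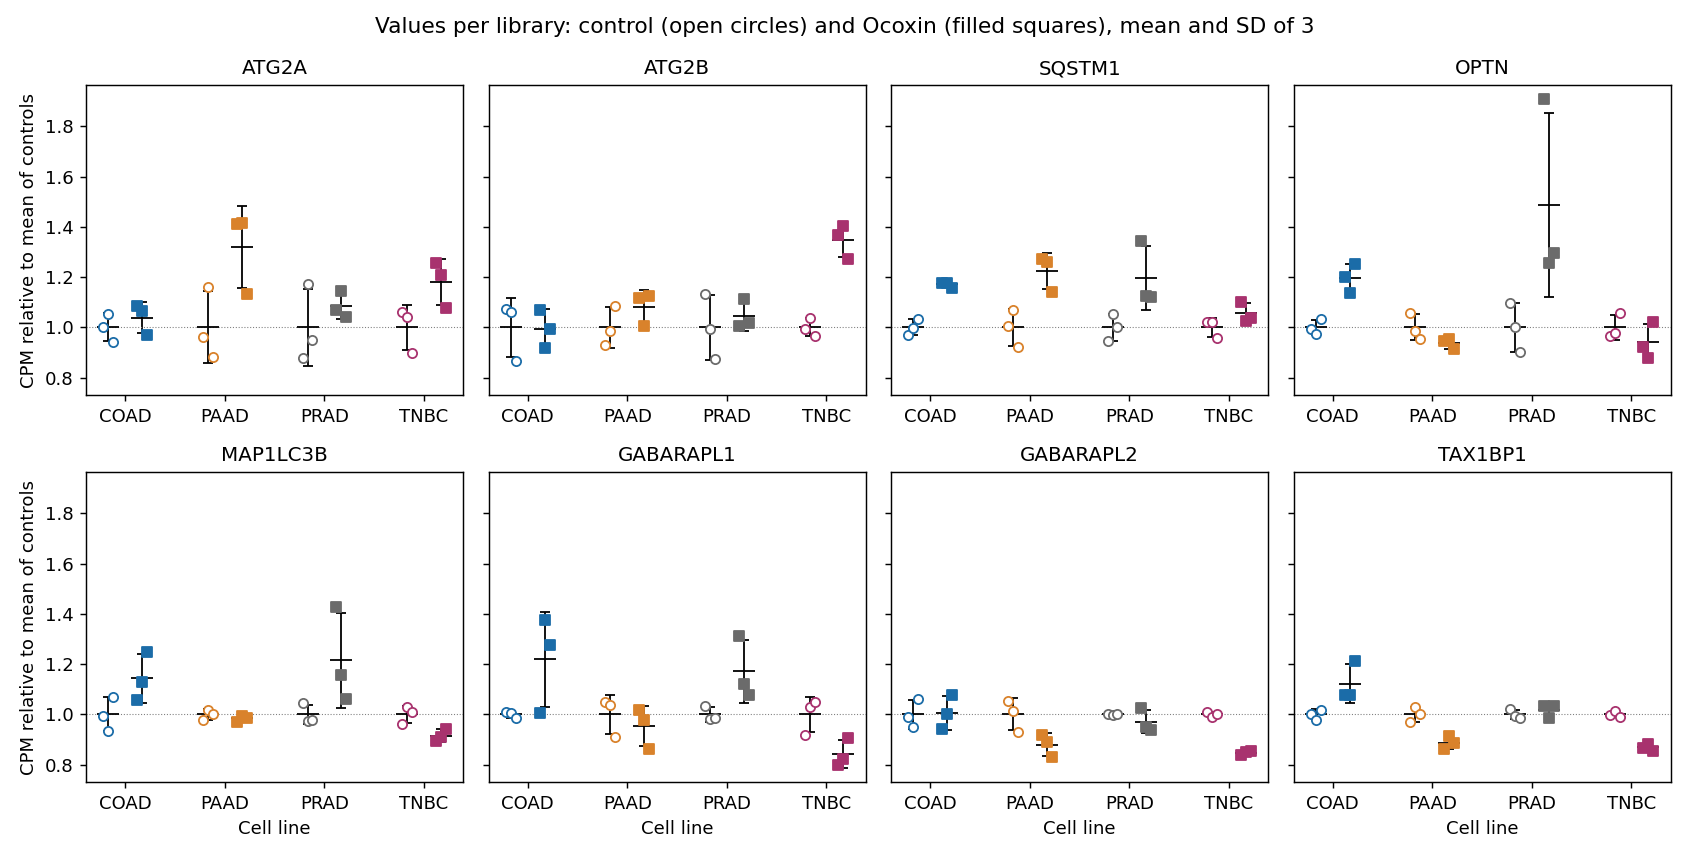
CPM of 8 core autophagy genes in every library, divided by the mean of the 3 controls of the same cell line (open circles control, filled squares Ocoxin, replicates 1 to 3 from left to right, bars mean and SD). Control and treated libraries do not overlap for ATG2A, ATG2B and the lower row in TNBC, for SQSTM1 in every line and for OPTN in COAD and PRAD. In PRAD, 1 library with Ocoxin lies high for OPTN and MAP1LC3B.

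The conjugation machinery was the largest group, with 11 members, and only ATG4A was altered. ATG4A (ENSG00000101844, chrX:108091668-108154671, plus strand) encodes a protease that trims ATG8 proteins. In COAD it was at 25.8, 24.6 and 24.5 CPM in controls and at 30.3, 29.3 and 30.1 CPM with Ocoxin. The groups did not overlap, and the log2 fold change was 0.26 (SE 0.0687, adjusted p = 0.0459). Each of the 6 fits that left out a library lost this call, with adjusted p from 0.0631 to 0.198, and it was 0.0527 with DESeq2, 0.0745 with all 24 libraries in 1 fit and 0.0543 with the trend removed. In PRAD its log2 fold change was also 0.26 (SE 0.0669, adjusted p = 0.0817, and 0.0279 with the block).

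The other 10 conjugation genes are the E1-like ATG7, the E2-like ATG3 and ATG10, the ubiquitin-like ATG12 and its partners ATG5 and ATG16L1, ATG16L2, and the proteases ATG4B, ATG4C and ATG4D. None was altered in any line, and their log2 fold changes ranged from -0.20 (ATG10 in PAAD) to 0.32 (ATG16L2 in TNBC). With the block, ATG4B rose in PAAD (0.16, adjusted p = 0.0132) and ATG16L2 rose in TNBC (0.31, adjusted p = 0.000943). In the same fit ATG4D (-0.19, adjusted p = 0.0144) and ATG12 (-0.19, adjusted p = 0.00491) fell in TNBC. ATG7 was the member with a negative log2 fold change in all 4 lines, from -0.13 to -0.03, and it was altered in none.

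Of the 4 ATG8 family genes, 3 fell in TNBC and none was altered in COAD, PAAD or PRAD. GABARAPL2 (ENSG00000034713, chr16:75566351-75577881, plus strand), also known as GATE-16, was at 115, 113 and 114 CPM in TNBC controls and at 95.7, 97 and 97.2 CPM with Ocoxin. The SD was 1.03 CPM in controls and 0.791 CPM with Ocoxin, and the fall of 0.24 on the log2 scale (SE 0.0385, adjusted p = 0.00112) was called in all 6 fits that left out a library. GABARAPL1 (ENSG00000139112, chr12:10212458-10223130, plus strand) was at 38.5, 43.1 and 44 CPM in TNBC controls and at 33.5, 34.4 and 38 CPM with Ocoxin. Treated replicate 3 lay just below control replicate 1, and the log2 fold change of -0.25 (SE 0.0671, adjusted p = 0.021) was the largest decrease among the altered members. MAP1LC3B (ENSG00000140941, chr16:87383995-87404779, plus strand), which encodes LC3B, was at 113, 121 and 119 CPM in TNBC controls and at 105, 107 and 111 CPM with Ocoxin. The groups nearly met, and its log2 fold change of -0.13 (SE 0.0434) had an adjusted p of 0.049, which was 0.0501 with DESeq2, 0.0516 with its size factors in edgeR, 0.0503 with at least 10 counts in every library and 0.19 with all 24 libraries in 1 fit. GABARAPL1 lost its call without control replicate 2 or 3 or treated replicate 1 or 2 (adjusted p from 0.0699 to 0.0961), and MAP1LC3B without any library but treated replicate 3 (0.052 to 0.181).

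In the other lines the ATG8 genes did not pass the test. In COAD GABARAPL1 was at 8.16, 8.12 and 7.96 CPM in controls and at 8.14, 11.1 and 10.3 CPM with Ocoxin, so that treated replicate 1 lay among the controls (log2 fold change 0.29, adjusted p = 0.24). MAP1LC3B in COAD was at 71.9, 67.6 and 77.4 CPM in controls and at 76.4, 81.5 and 90.3 CPM with Ocoxin (0.19, adjusted p = 0.127). In PRAD the values were 0.28 for MAP1LC3B (adjusted p = 0.182) and 0.23 for GABARAPL1 (adjusted p = 0.153), and the groups did not overlap for either gene. GABARAPL2 in PAAD was at 83.6, 80.4 and 73.7 CPM in controls and at 72.8, 70.4 and 65.8 CPM with Ocoxin, which gave a log2 fold change of -0.19 (adjusted p = 0.0983, and 0.00227 with the block). GABARAP had the lowest control level per kilobase of all members in PAAD and TNBC, at 0.195 and 0.252 CPM per kilobase. Other annotated genes overlap 55.7% of its exonic bases, so its counts are uncertain and its log2 fold changes, from -0.13 to 0.48, carry SE from 0.137 to 0.378. MAP1LC3B has a near-identical paralog, MAP1LC3B2, and its counts may include reads of that gene.

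Among the 5 receptors, SQSTM1 rose in COAD and PAAD, OPTN rose in COAD and TAX1BP1 fell in TNBC. SQSTM1 (ENSG00000161011, chr5:179806398-179838078, plus strand) encodes p62, which links ubiquitinated cargo to LC3 and also binds KEAP1. In COAD it was at 108, 111 and 115 CPM in controls and at 131, 131 and 129 CPM with Ocoxin. In PAAD it was at 321, 342 and 295 CPM in controls and at 406, 403 and 364 CPM with Ocoxin. Every treated library exceeded every control in both lines, and the log2 fold change was 0.23 in COAD (SE 0.0493, adjusted p = 0.0149) and 0.29 in PAAD (SE 0.0633, adjusted p = 0.00969). The call in COAD was lost without control replicate 1 or 2 or treated replicate 2 (adjusted p from 0.0915 to 0.118), and that in PAAD without treated replicate 1 (0.0628) or 2 (0.0658). In PRAD SQSTM1 was at 83.1, 92.6 and 88.1 CPM in controls and at 118, 98.8 and 98.6 CPM with Ocoxin (0.26, SE 0.0792, adjusted p = 0.125). In TNBC it was at 226, 226 and 212 CPM in controls and at 244, 227 and 230 CPM with Ocoxin (0.08, SE 0.0413, adjusted p = 0.216). Thus the treated libraries lay above the controls in all 4 lines, and 2 of the 4 changes passed the test. MRNIP and MGAT4B overlap 22% of the exonic bases of SQSTM1.

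OPTN (ENSG00000123240, chr10:13099449-13138308, plus strand) encodes optineurin, a receptor for damaged mitochondria and bacteria. In COAD it was at 96, 94.3 and 99.7 CPM in controls and at 116, 110 and 121 CPM with Ocoxin. The groups did not overlap, and the log2 fold change was 0.26 (SE 0.0529, adjusted p = 0.00947). The call was lost without control replicate 1 (adjusted p = 0.0598), without control replicate 2 (0.0794) and with all 24 libraries in 1 fit (0.107). In PRAD OPTN was at 20.4, 18.6 and 16.8 CPM in controls and at 35.5, 23.4 and 24.1 CPM with Ocoxin. Treated replicate 1 stood apart from the other two, and the log2 fold change of 0.57 (SE 0.173) had an adjusted p of 0.119, or 0.0259 with the block. In PAAD and TNBC the log2 fold change was -0.09 in each, with overlapping groups and adjusted p of 0.36 and 0.299. The block gave 0.0166 in TNBC.

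TAX1BP1 (ENSG00000106052, chr7:27739331-27844564, plus strand) encodes a receptor that also brings FIP200 to cargo. In TNBC it was at 574, 582 and 568 CPM in controls and at 499, 508 and 491 CPM with Ocoxin. All treated libraries were lower by a wide margin compared with the spread in either group, and the fall of 0.20 on the log2 scale (SE 0.0319, adjusted p = 0.000894) was called in all 6 fits that left out a library. In PAAD it was at 273, 290 and 282 CPM in controls and at 243, 257 and 250 CPM with Ocoxin. These groups did not overlap either, and the log2 fold change of -0.17 (SE 0.0526) had an adjusted p of 0.0547, with 0.000288 in the blocked fit and 0.0224 with DESeq2. In COAD it was at 120, 117 and 122 CPM in controls and at 129, 129 and 145 CPM with Ocoxin (0.16, SE 0.0548, adjusted p = 0.124). NBR1 and CALCOCO2, which encodes NDP52, were altered in none of the lines. With the block they rose in TNBC, by 0.10 (adjusted p = 0.0103) and 0.13 (adjusted p = 0.00344) on the log2 scale.

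The promoter windows of the 4 members that fell in TNBC are shown. They were picked by that call, so their common direction follows from the choice. Each window runs from 250 bases before to 50 bases after the start of the gene in RefSeq (GRCh38.p14), 5′ to 3′ on the strand of the gene. Capitals mark a match to TGACNNNGC, the core of the antioxidant response element.
MAP1LC3B, chr16:87392086-87392385, plus strand: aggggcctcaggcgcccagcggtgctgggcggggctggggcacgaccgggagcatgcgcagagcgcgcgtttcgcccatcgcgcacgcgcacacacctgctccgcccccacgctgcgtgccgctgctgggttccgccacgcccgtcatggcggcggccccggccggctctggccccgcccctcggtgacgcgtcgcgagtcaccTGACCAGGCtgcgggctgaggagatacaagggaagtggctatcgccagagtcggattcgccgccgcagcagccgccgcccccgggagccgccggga
GABARAPL1, chr12:10212627-10212926, plus strand: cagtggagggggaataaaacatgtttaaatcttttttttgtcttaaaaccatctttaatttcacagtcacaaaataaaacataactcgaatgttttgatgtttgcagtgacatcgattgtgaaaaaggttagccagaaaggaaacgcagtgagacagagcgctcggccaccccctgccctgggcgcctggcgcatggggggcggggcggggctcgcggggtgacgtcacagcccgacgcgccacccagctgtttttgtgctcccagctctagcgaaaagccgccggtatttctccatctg
GABARAPL2, chr16:75566129-75566428, plus strand: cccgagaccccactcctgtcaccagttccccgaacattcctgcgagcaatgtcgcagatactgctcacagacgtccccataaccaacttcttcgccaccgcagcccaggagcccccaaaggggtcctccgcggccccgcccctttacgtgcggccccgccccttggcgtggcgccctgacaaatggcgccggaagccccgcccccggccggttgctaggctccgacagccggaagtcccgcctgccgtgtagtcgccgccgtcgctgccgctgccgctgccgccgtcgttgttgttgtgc
TAX1BP1, chr7:27739123-27739422, plus strand: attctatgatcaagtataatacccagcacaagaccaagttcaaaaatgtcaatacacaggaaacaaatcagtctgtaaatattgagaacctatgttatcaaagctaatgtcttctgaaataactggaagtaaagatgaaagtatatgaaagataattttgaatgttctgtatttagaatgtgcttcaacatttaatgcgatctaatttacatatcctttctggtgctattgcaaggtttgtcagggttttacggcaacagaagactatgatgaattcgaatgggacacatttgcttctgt
Windows were found for 33 members. Searched on both strands were TGACNNNGC, the E-box CACGTG, the longer TCACGTGA, which TFEB and related factors bind, and TGATGNAA, an element bound by ATF4 with C/EBP proteins. TGACNNNGC stood in 3 of the 33 windows (9.09%; ATG101, MAP1LC3B and CALCOCO2), against 13.6% of all 27305 windows. CACGTG stood in 2 (6.06%; ATG3 and ATG14), against 7.43% of all, and every TCACGTGA contains a CACGTG. TCACGTGA stood in ATG3 alone (3.03%, against 1.04%), and TGATGNAA in no member (3.67% of all). Neither ATG3 nor ATG14 was altered in any line. The RefSeq start of MAP1LC3B lies 8341 bases from the gene start in the count tables, so this window belongs to an inner start.

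Whether the responses differed between lines was tested with an interaction term in 1 fit of the 18 libraries of COAD, PAAD and TNBC. COAD and TNBC had the same dilution of Ocoxin. Between them the response differed for 6 members (16.7%), against 7.85% of all 21068 genes tested. The log2 fold change was higher in COAD for MAP1LC3B (difference 0.33, SE 0.0834, edgeR adjusted p = 0.0125), GABARAPL1 (0.53, SE 0.135, adjusted p = 0.0127), OPTN (0.36, SE 0.0828, adjusted p = 0.00661) and TAX1BP1 (0.37, SE 0.0689, adjusted p = 0.000823). It was lower in COAD for ATG2B (-0.43, SE 0.109, adjusted p = 0.0125) and PIK3R4 (-0.31, SE 0.089, adjusted p = 0.0287). OPTN and TAX1BP1 kept their calls in all 12 fits that left out a library. GABARAPL1 lost its call without treated COAD replicate 2 (adjusted p = 0.0692), ATG2B without that library (0.0509) or COAD control 1 (0.0517), and MAP1LC3B without COAD control 2 (0.061) or treated COAD replicate 3 (0.0606). PIK3R4 kept its call in 4 of the 12 fits, those without COAD control 3, treated COAD replicate 1, TNBC control 1 or treated TNBC replicate 3, and the adjusted p reached 0.1 in the others. For GABARAPL2, which fell in TNBC, the difference of 0.25 (SE 0.0835) had an adjusted p of 0.0588.

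**Figure D3:**
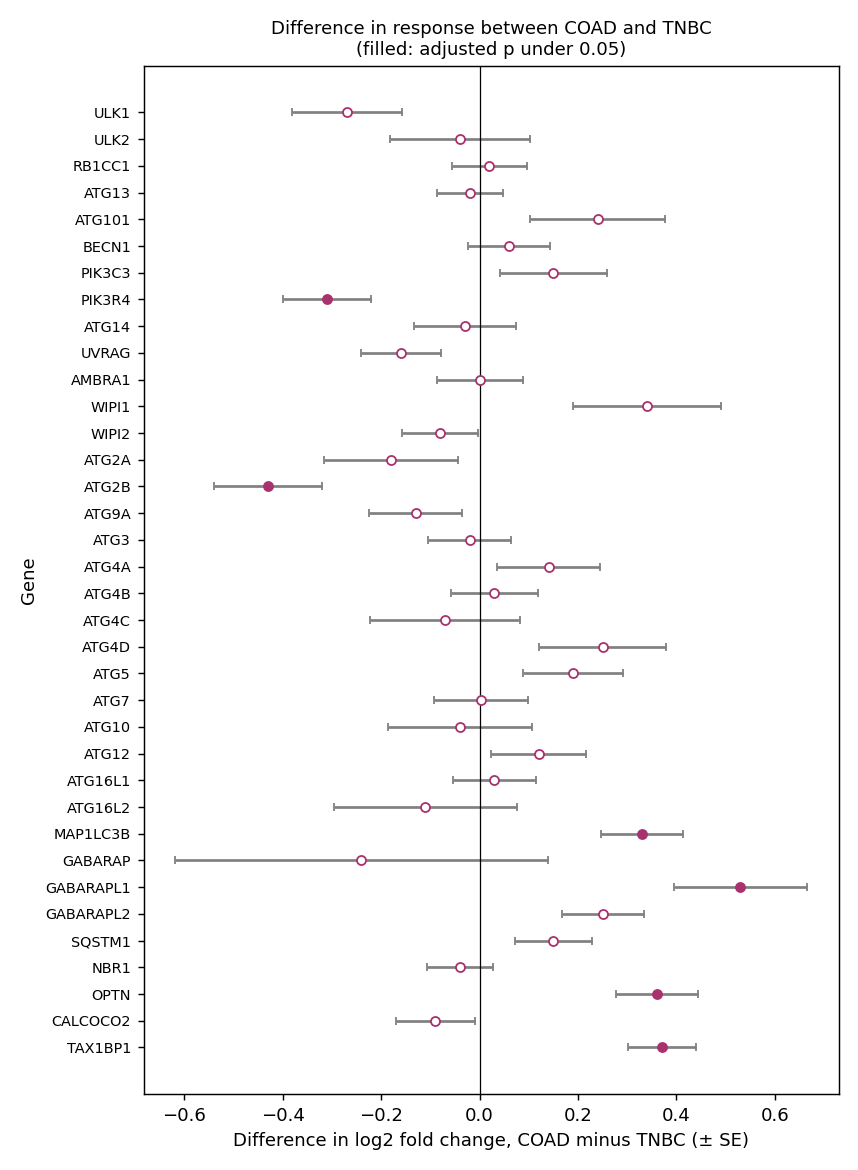
Difference in log2 fold change between COAD and TNBC for each of the 36 genes (horizontal axis, COAD minus TNBC, bars SE) from 1 fit of 18 libraries, with filled points for an edgeR adjusted p under 0.05. Of the 6 filled points, ATG2B and PIK3R4 lie left of 0 and MAP1LC3B, GABARAPL1, OPTN and TAX1BP1 lie right of it.

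COAD and PAAD had different dilutions, and their responses differed for 2 members (5.56%), against 3.96% of all genes. OPTN differed by 0.36 (SE 0.0831, adjusted p = 0.0105) and TAX1BP1 by 0.35 (SE 0.0693, adjusted p = 0.00373), both higher in COAD. With all 24 libraries in 1 fit the adjusted p of OPTN was 0.0757. Between PAAD and TNBC, which also had different dilutions, edgeR called a difference for 0 members, against 4.56% of all genes. DESeq2 called 2, and 4 had an unadjusted edgeR p under 0.05, but neither count is set against the share of all genes. With the block, 5 members were called (12.5% of all genes were): ATG101, ATG4D and SQSTM1 with a higher log2 fold change in PAAD and PIK3R4 and ATG2B with a higher one in TNBC. The rise of SQSTM1 in PAAD and its value in TNBC differed by 0.21 (SE 0.0772, adjusted p = 0.127, and 0.00297 with the block). Its responses in COAD and TNBC differed by 0.15 (SE 0.0785, adjusted p = 0.258).

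The control levels, as CPM per kilobase of exon, varied among the members within a line. The highest were GABARAPL2 in COAD (49.3 ± 2.87, SD, n = 3), SQSTM1 in PAAD (41.7 ± 3.04), NBR1 in PRAD (25.7 ± 0.129) and TAX1BP1 in TNBC (62.7 ± 0.761). SQSTM1 was followed in PAAD by OPTN (36.4 ± 1.93) and TAX1BP1 (30.7 ± 0.951), and TAX1BP1 in TNBC by OPTN (48 ± 2.34) and GABARAPL2 (37.5 ± 0.34). The receptors thus took the first 3 places in PAAD and the first 2 in TNBC. At the low end stood GABARAP, ATG16L2 and ULK2 in COAD and TNBC, from 0.252 to 1.54 CPM per kilobase. GABARAPL1 was at 1.98 CPM per kilobase in COAD, 24.3 in PAAD and 10.2 in TNBC, and the lines differed more in it than Ocoxin changed it in any of them.

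**Figure D4:**
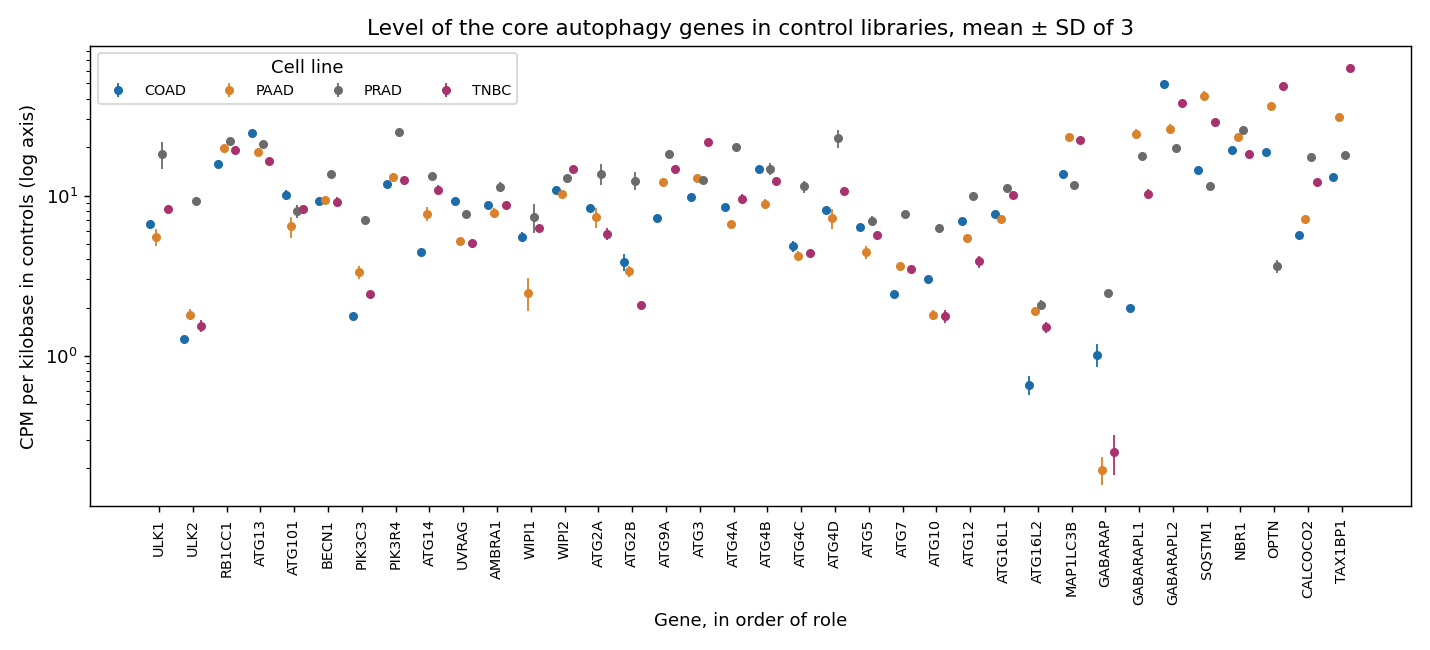
Control level of each of the 36 genes in CPM per kilobase of exon (log axis, mean and SD of 3 control libraries) in the 4 cell lines. PRAD was counted in another way and its points are not comparable with the others. The highest point of COAD, of PAAD and of TNBC lies among the ATG8 family and the receptors, at the right, and ATG13 of the ULK complex is second in COAD (24.4).

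Around the core genes, 64 further autophagy genes were described by 4 lists: upstream regulators, other core and LC3 family genes, autophagosome fusion genes and other selective receptors. In TNBC 9 rose and 11 fell of 63 tested (31.7%, against 21% of all genes), in PAAD 5 rose and 3 fell of 63 (12.7%, against 8.33%), in COAD 4 rose of 63 (6.35%, against 2.55%) and in PRAD 3 rose of 62 (4.84%, against 2.98%). The same shares of all genes are the background of each list named next. Their median log2 fold change lay between -0.01 in TNBC and 0.04 in COAD and PRAD.

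Among the 22 upstream regulators, 6 rose and 1 fell in TNBC, 4 rose and 1 fell in PAAD, 2 rose in COAD and none was altered in PRAD by edgeR's test. The 6 in TNBC include MTOR itself, which rose by 0.29 on the log2 scale (SE 0.0398, adjusted p = 0.000342). It was called in all 6 fits that left out a library, and COAD and TNBC differed in it by -0.35 (SE 0.0945, adjusted p = 0.019). The 1 that fell in TNBC was RHEB. SESN2, a stress-induced inhibitor of mTORC1, rose in COAD (0.87 on the log2 scale, SE 0.126, adjusted p = 0.000489), PAAD (0.41, SE 0.0836, adjusted p = 0.00652) and TNBC (0.49, SE 0.0527, adjusted p = 6.64e-05). In PRAD its value was 0.39 (edgeR adjusted p = 0.0764, 0.032 with the block and 0.0128 with DESeq2). PRKAA2 in PRAD had 0.76 (SE 0.187, edgeR adjusted p = 0.0756, 0.0146 with the block and 0.00868 with DESeq2). For these genes the call in PRAD thus depended on the tool. TSC2 and TSC1, which form a complex that inhibits mTORC1, rose in PAAD by 0.29 and 0.25 and in TNBC by 0.40 and 0.16. Their values in COAD were 0.01 and -0.09, and in PRAD 0.06 and 0.08. FOXO1, a transcription factor that induces autophagy genes, rose in PAAD (0.35) and TNBC (0.20), with 0.22 in COAD and 0.43 in PRAD. SESN3 fell in PAAD (-0.27) and rose in TNBC (0.25), with 0.12 in COAD and -0.10 in PRAD. Its responses in PAAD and TNBC differed by -0.52 (PAAD minus TNBC, SE 0.105, adjusted p = 0.00267). DDIT4, another inhibitor of mTORC1, rose by 0.85 in COAD (SE 0.139, adjusted p = 0.0018). SESN2 and DDIT4 kept these calls in all 6 fits of their line that left out a library. TSC1 lost its call in PAAD without any library but control replicate 3 (adjusted p from 0.062 to 0.102) and in TNBC without any but control replicate 1 (0.0726 to 0.15). TSC2 lost it in PAAD without treated replicate 1 (0.073) or 2 (0.09), and FOXO1 in TNBC without control replicate 2 or 3 or treated replicate 1 or 2 (0.12 to 0.158). SESN3 lost it in PAAD without those same numbers (0.0549 to 0.172) and in TNBC without control replicate 1 or 2 or treated replicate 2 or 3 (0.053 to 0.11). TSC1 in TNBC was also not called with DESeq2 (adjusted p = 0.0508) or with all 24 libraries in 1 fit (0.197). It was not called with the trend removed (0.184, and 0.0934 with the block) or without both libraries numbered 3 (0.0872). FOXO1 in TNBC was not called with all 24 libraries in 1 fit (0.124) or with the trend removed (0.105).

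Among the 17 other selective receptors, 7 fell and 2 rose in TNBC, 1 fell in PAAD, 2 rose in PRAD and none was altered in COAD. BNIP3, a receptor for mitochondria, was at 7.76, 6.3 and 12.1 CPM in TNBC controls and at 2.15, 1.69 and 2.09 CPM with Ocoxin. The groups were far apart, with a log2 fold change of -2.13 (SE 0.246, adjusted p = 0.000446), and the response differed from that in COAD by 2.32 (SE 0.298, adjusted p = 8.83e-06). BNIP3L, its paralog, fell by 0.55 on the log2 scale in TNBC (SE 0.0704, adjusted p = 0.000224) and by 0.27 in PAAD (SE 0.0589, adjusted p = 0.0104), with -0.06 in COAD and -0.24 in PRAD. CCPG1, a receptor for the endoplasmic reticulum, rose in PRAD (0.67, SE 0.119, adjusted p = 0.0327) and TNBC (0.34, SE 0.101, adjusted p = 0.031), with 0.36 in COAD and 0.16 in PAAD. RETREG1, another such receptor, rose by 0.31 in PRAD (SE 0.0517, adjusted p = 0.0294). Both PRAD calls were lost without any library but treated replicate 3 (adjusted p from 0.0603 to 0.12 for CCPG1 and 0.06 to 0.131 for RETREG1) and without both libraries numbered 3 (0.0951 and 0.0836), and RETREG1 with all 24 libraries in 1 fit (0.39). CCPG1 in TNBC lost its call without control replicate 1 or 2 or treated replicate 2 or 3 (0.0708 to 0.129), and BNIP3L in PAAD without treated replicate 1 (0.0558) or 2 (0.0842).

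Of the 11 other core and LC3 family genes, 10 were tested in each line. WDR45, a PI3P binder of the WIPI family, rose in COAD (0.27, SE 0.0536, adjusted p = 0.00916) and TNBC (0.21, SE 0.0599, adjusted p = 0.023), with 0.11 in PAAD and 0.21 in PRAD. MAP1LC3A, which encodes LC3A, was at 1.04, 0.759 and 0.715 CPM in COAD controls and at 2.06, 1.89 and 2.1 CPM with Ocoxin. The groups did not overlap, and the rise at this low level was 1.27 on the log2 scale (SE 0.263, adjusted p = 0.0103). SH3GLB1, which binds UVRAG, rose by 0.52 in PRAD (SE 0.0569, adjusted p = 0.0126), and VMP1, a scramblase of the endoplasmic reticulum, fell by 0.28 in PAAD (SE 0.059, adjusted p = 0.008). WDR45 lost its call in COAD without control replicate 1 (0.0528) or 2 (0.0668) and in TNBC without control replicate 2 or any treated library (0.0501 to 0.0881), and MAP1LC3A without control replicate 2 (0.0645). SH3GLB1 lost it without control replicate 2 (0.0621), treated replicate 2 (0.088) or both libraries numbered 3 (0.0577). Of the 14 fusion genes, VAMP8, a SNARE of the lysosomal side, fell by 0.30 in TNBC (SE 0.0423, adjusted p = 0.0004). RAB7A also fell there, PLEKHM1 rose by 0.39 in PAAD (SE 0.0961, adjusted p = 0.0203), and none was altered in COAD or PRAD. The call of PLEKHM1 was lost without control replicate 3 or treated replicate 1 or 2 (0.0543 to 0.0948).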

How the data were processed

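The 24 libraries were polyadenylated RNA of adherent cells. The authors used fastp for trimming, STAR for alignment to hg38, picard against PCR duplicates and featureCounts 2.0.3 for counting primary alignments on exons, without strand, and the PRAD libraries without the paired-end option. The deposited values are these raw counts per gene for 58051 genes. Groups came from the titles. Nothing shows that replicates were separate cultures, so p-values measure the spread between these libraries.

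Counts were filtered with filterByExpr, scaled with TMM and tested per line in edgeR 4.0.16 (R 4.3.3) by its robust quasi-likelihood method, two-sided, and p-values were adjusted by Benjamini-Hochberg across every gene that passed the filter. Levels are TMM-scaled CPM. Differences between lines used an interaction term in a fit of 18 libraries. The procedure was tested on simulated data, with changes larger than most of those called here and without a link between same-numbered libraries. That test does not show how it performs for smaller changes or for linked libraries. Members and lists were chosen with earlier results of these data known. Every altered member is named, with library values for those altered in 2 lines or with the largest change in a line, and others shown for their part in a comparison. Of 65 listed genes, 64 matched a single identifier.

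In tested genes with expression above the median, deviations of same-numbered control and Ocoxin libraries correlated by 0.361 to 0.663 in PAAD, 0.182 to 0.565 in PRAD and 0.309 to 0.646 in TNBC (Pearson), over 0.1 in every pair, so these were read as paired. Different numbers also correlated where neither was 3. Control 2 and Ocoxin 1 were at 0.166 in PAAD, 0.16 in PRAD and 0.37 in TNBC. Control 1 and Ocoxin 2 were at 0.246, 0.157 and 0.254. Pairs of a library 3 with another number were negative. The numbers thus set library 3 apart, and in TNBC they did not tell 1 from 2. In PRAD they hardly did, with same-numbered pairs 1 and 2 at 0.182 and 0.202, against 0.157 and 0.16. The blocked fits rest on this reading. Over all tested genes, low ones included, the lowest pair in these lines was at 0.0235, 0.0912 and 0.062, so the reading depends on the genes used and is a hint from the data, as the labels give only the number. In COAD the lowest was 0.0945. Alternatives were DESeq2 1.42.0, its size factors in edgeR, no filter, at least 10 counts in every library, all 24 libraries in 1 fit, the replicate block, a spline on exonic length and GC (5 degrees of freedom) taken out of each library, both, halved counts, an adjusted p under 0.01, a fold change of at least 1.5, and each library left out. Leaving out both libraries numbered 3 was added after the data were seen.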

Additional observations from a re-analysis of the deposited data

Results flagged for a closer look

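The following responses differed between cell lines by edgeR's interaction test and are listed here as values. Between COAD and TNBC, with the same dilution of Ocoxin, the difference in log2 fold change (COAD minus TNBC) was -0.31 for PIK3R4, -0.43 for ATG2B, 0.33 for MAP1LC3B, 0.53 for GABARAPL1, 0.36 for OPTN and 0.37 for TAX1BP1. Between COAD and PAAD, with different dilutions, it was 0.36 for OPTN and 0.35 for TAX1BP1. Groups of 3 libraries are too small for the test for single outlying libraries, which was therefore not run.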

How the results depend on the processing

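No altered member changed its direction under any alternative. The number of altered members moved by over 1.5 times as follows. With all 24 libraries in 1 fit it was 5 in TNBC, 5 in PAAD, 3 in PRAD and 1 in COAD, and 1 member differed between COAD and PAAD. With the replicate block it was 6 in COAD, where the numbers were not read as pairs, 17 in TNBC, 11 in PAAD and 3 in PRAD, and 11, 5 and 7 members differed between COAD and TNBC, PAAD and TNBC, and COAD and PAAD. With the block and the trend removed it was 8 in COAD, 6 in PAAD and 9 in PRAD, and 11, 3 and 6 members differed. Without the filter 2 members were altered in PRAD and 5 differed between COAD and PAAD, and with DESeq2 2 differed between PAAD and TNBC. At an adjusted p under 0.01 it was 1 in COAD, 1 in PAAD and 3 in TNBC, and 2 and 1 members differed between COAD and TNBC and between COAD and PAAD. At a fold change of at least 1.5 it was 0 in COAD, PAAD and TNBC, and 0 members differed in these 2 pairs. Without both libraries numbered 3 it was 5 in PAAD, and 1 and 5 members differed between PAAD and TNBC and between COAD and PAAD. The cause was not tested, except that the stricter limits call fewer by construction. The share of all genes moved too, for instance from 8.33% to 23.1% in PAAD with the block. This share is not given for every setting here, so these counts by themselves are not results about the members. Leaving out 1 library in turn gave 3 to 14 in TNBC, 0 to 4 in PAAD, 0 to 3 in COAD and 0 in PRAD, and 3 to 7, 0 to 2 and 2 to 4 members that differed in the 3 pairs. With the block, where COAD numbers were not read as pairs, the differences of GABARAPL2 and SQSTM1 between COAD and TNBC had adjusted p of 0.000796 and 0.0317, against 0.0588 and 0.258 without it. PRAD had the fewest counts per library, and its biological coefficient of variation was 6.48%, against 6.28% to 6.84% in the other lines.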
